A study of Macaca fascicularis and Macaca mulatta with 24 samples.

Results

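Voltage-gated sodium channels of neurons and their intracellular partners were measured in cynomolgus macaque cortex after an experimental stroke. The 9 genes were 4 pore-forming alpha subunits (SCN1A, SCN2A, SCN3A and SCN8A), 3 beta subunits (SCN2B, SCN3B and SCN4B) and 2 fibroblast growth factor homologous factors (FGF12 and FGF14). They were found by an exact match of the gene symbol in the array annotation, which gave 9 probes, 1 per gene, of 20217 gene probes on the array (9 of 15190 named genes). All 9 were among the 17226 probes kept after a filter on dim signals. The members were chosen by name from a set selected on measured log2 ratios, since it was proposed with earlier results of these arrays in view. Among those results was the difference of SCN8A between treatments in right cortex at 1 h, and FGF14 was singled out in the name of the set for a result that the sources used here do not state. Treatment and time differences of SCN8A, and all differences of FGF14, are therefore given as descriptions with no test, and calls in those contrasts are counted over the other 7 members.

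The right middle cerebral artery was occluded in every animal, including those on placebo, so no group was free of surgery. Animals received an intravenous dose of placebo or of 2.6 mg/kg TatNR2B9c 5 min later. In TatNR2B9c the tail of the NMDA receptor subunit NR2B is carried into cells by a Tat sequence, and the peptide was designed to separate the receptor from its scaffold PSD-95. Biopsies of right (ischemic) and left (non-ischemic) cortex were collected at 1 h or 6 h, in 3 animals per treatment and time. This gave 8 groups of 3 samples from 12 animals, with samples of the same number, treatment and time read as the left and right cortex of 1 animal. Ages and strains are not given in the labels. Each of the 24 samples was labelled with Cy5 and set against Universal Reference RNA of rhesus macaque in Cy3, without a dye swap. Values are log2 ratios of Cy5 over Cy3, so 0 means equal signal of cortex and reference, and a difference of 1 is a doubling of that ratio.

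Sodium channel alpha subunits form the pore that opens on depolarisation and carries the rising phase of the action potential. Beta subunits are single-pass membrane proteins that tune gating and membrane density and act as adhesion molecules. The homologous factors are not secreted, bind the tail of the alpha subunits inside the cell, and set how channels inactivate at the axon initial segment, the stretch of axon where spikes start. SCN1A (Nav1.1) is known from inhibitory interneurons, SCN2A (Nav1.2) from unmyelinated and immature axons, SCN3A (Nav1.3) from developing cortex and SCN8A (Nav1.6) from mature initial segments and nodes of Ranvier. In ischemia sodium entry through these channels is one of the loads that drains cellular energy.

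The probes were designed on the rhesus genome build rheMac2, per the file headers, so mismatches to cynomolgus transcripts could lower their signal. Those of SCN3A, SCN2A and SCN1A lay in this order on chromosome 12, at chr12:28736483-28736542 (minus strand), chr12:29049823-29049882 (plus strand) and chr12:29633661-29633720 (minus strand), with 0.313 Mb and 0.584 Mb between neighbours. The SCN8A probe lay at chr11:48934563-48934622 (plus strand). SCN2B and SCN3B were 5.44 Mb apart on chromosome 14, at chr14:116544883-116544942 and chr14:121989624-121989683 (both minus strand). FGF12 was read at chr2:184375844-184375903 and FGF14 at chr17:82039811-82039870 (both minus strand). The SCN4B probe had no position in the files and was named only by the oldest of the annotations there, through a human transcript. In the newest annotation the FGF12 and SCN3B probes carry rhesus locus names and are described as similar to those genes. Exon and UTR positions were not looked up here. Because the alpha subunits are close paralogues, the first 30 of the 60 bases of each probe are printed to show how far the probes are distinct, all in lower case since no part is marked.
SCN1A: accttcctatgaccgggtgacaaagccaat
SCN2A: caaatgtatacttaaggtcagtgcctacaa
SCN3A: tttcaagaacccttggatttatgtgaggtc
SCN8A: tccataccggctataattctttattaatga
SCN2B: aggtggaaaaccagtgagatgtttccacag
SCN3B: ttactaccactgcgctttcctcagtgttcc
SCN4B: tatgcctttcctagcatttttacttgggga
FGF12: agctgtatttcttcttgtcactcttgattc
FGF14: ctgaagagcagcaggaagtaagctaatgct
Over the full 60 bases, the longest run shared by any 2 of these probes was 9 bases, between SCN3A and SCN2B, and no other probe on the array had the same sequence as one of them. Each probe had 2 spots on every array, which were averaged.

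The arrays fell into 3 campaigns of scanning and image extraction, each with its own software version: the 6 placebo 1 h arrays, the 6 placebo 6 h arrays and the 12 TatNR2B9c arrays. Probes well above background made up 45.4% to 76.7% in Cy5 and 15.7% to 51.7% in Cy3 on placebo 1 h arrays, 81.9% to 93.3% and 84.3% to 92.5% on placebo 6 h arrays, and 46.1% to 97.7% and 51.8% to 99.3% on TatNR2B9c arrays. In any contrast between placebo 1 h, placebo 6 h and TatNR2B9c, group and campaign therefore cannot be told apart. Contrasts of sides, and of times under TatNR2B9c, lie within a campaign, but not always within a slide or a scan day. The cortical label fitted the data, since all 13 neuron markers on the array (of 14 listed), among them SNAP25, STMN2 and SLC17A7, were well above background on 23 or 24 arrays. In these pieces of whole cortex, fewer neurons and less RNA per neuron cannot be told apart.

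SCN1A, the pore subunit known from inhibitory interneurons, gave log2 ratios of 0.08, 0.42 and 0.19 in placebo left and 0.52, 0.34 and 0.10 in placebo right cortex at 1 h. At 6 h the placebo values were 3.50, 3.21 and 3.09 on the left and 2.58, 3.41 and 3.16 on the right. Under TatNR2B9c it read 0.66, 1.25 and 0.90 (left) and 1.77, 1.34 and 1.12 (right) at 1 h, then 1.17, 3.25 and 1.23 (left) and 3.01, 2.67 and 2.54 (right) at 6 h. The 6 placebo 1 h values all lay below those of every other group, and the wide spread of TatNR2B9c left cortex at 6 h came from animal 2. SCN2A, the subunit of unmyelinated axons, stayed between -0.03 and 0.19 in placebo cortex at 1 h and lay between 1.101 and 1.87 at 6 h. Under TatNR2B9c its values ran from 0.10 to 0.68 at 1 h and from 0.20 to 1.32 at 6 h, so the times overlapped. SCN2A was well above background in Cy5 on 19 of 24 arrays and in Cy3 on 7.

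SCN3A, the subunit of developing cortex, was well above background in Cy5 on all 24 arrays. In placebo cortex at 1 h it read 0.17, 1.03 and 0.88 on the left and 0.85, 1.497 and 0.22 on the right. At 6 h placebo values were 3.64, 2.63 and 2.35 (left) and 1.99, 1.72 and 2.32 (right). TatNR2B9c arrays gave 0.41, 0.84 and 0.78 (left) and 2.11, 1.60 and 0.96 (right) at 1 h, and 0.97, 2.19 and 1.095 (left) and 2.10, 2.25 and 0.81 (right) at 6 h. Left and right did not overlap in placebo cortex at 6 h, with the left higher, nor in TatNR2B9c cortex at 1 h, with the right higher.

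SCN8A, the subunit of mature initial segments and nodes, gave 0.16, 0.60 and 0.21 in placebo left cortex and 0.55, 0.33 and 0.18 in placebo right cortex at 1 h. TatNR2B9c cortex at the same time gave 1.89, 2.54 and 1.95 on the left and 2.39, 2.28 and 1.97 on the right. The groups of the 2 treatments lay far apart, with no placebo value above 0.60 and no TatNR2B9c value below 1.89. At 6 h SCN8A read 3.85, 3.30 and 3.21 (left) and 3.00, 2.84 and 3.19 (right) under placebo, and 2.22, 3.66 and 2.55 (left) and 3.27, 3.39 and 2.62 (right) under TatNR2B9c. The order of group means was placebo left 6 h (3.45 ± 0.34, SD, n = 3), TatNR2B9c right 6 h (3.09 ± 0.41), placebo right 6 h (3.01 ± 0.17), TatNR2B9c left 6 h (2.81 ± 0.75), TatNR2B9c right 1 h (2.21 ± 0.22), TatNR2B9c left 1 h (2.13 ± 0.36), placebo right 1 h (0.35 ± 0.19) and placebo left 1 h (0.33 ± 0.24). Neighbours in this order overlapped, except for the step from TatNR2B9c 1 h to placebo 1 h.

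Of the beta subunits, SCN2B, which is linked by a disulfide bond to the alpha subunit, gave 0.09, 0.58 and 0.44 in placebo left and 0.43, 0.58 and 0.15 in placebo right cortex at 1 h. At 6 h placebo values were 2.33, 2.13 and 2.40 (left) and 2.30, 2.02 and 2.49 (right). Under TatNR2B9c SCN2B read 0.21, 0.17 and 0.38 (left) and 1.06, 0.92 and 0.61 (right) at 1 h, and 0.40, 1.35 and 0.39 (left) and 1.77, 0.81 and 0.57 (right) at 6 h. No TatNR2B9c value reached the lowest placebo value at 6 h, and right cortex lay above left without overlap at 1 h under TatNR2B9c.

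SCN3B, a beta subunit bound without such a bond, was well above background in Cy5 on all 24 arrays. It gave 0.02, 0.61 and 0.70 (left) and 0.39, 0.49 and 0.10 (right) in placebo cortex at 1 h, and 3.48, 2.44 and 2.50 (left) and 2.40, 1.73 and 1.97 (right) at 6 h. The TatNR2B9c values were 0.23, 0.64 and 0.45 (left) and 1.00, 1.23 and 0.53 (right) at 1 h, and 0.38, 1.77 and 0.65 (left) and 1.41, 1.96 and 0.56 (right) at 6 h. In placebo cortex at 6 h every left value was above every right value.

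SCN4B, the beta subunit known as an open-channel blocker of resurgent current, read close to the reference everywhere, between -0.11 and 0.28 over the 24 arrays. Its Cy5 signal was well above background on 9 arrays only, and on none in the 4 groups taken at 1 h. It passed the filter through the placebo 6 h groups alone. Its differences between placebo 6 h and 1 h are therefore not set against a bound. In TatNR2B9c right cortex the Cy5 level at 6 h (mean log2 level 6.55) was at least 1.19-fold above 1 h (6.30, not well above background, limma adjusted p = 0.562 for the ratio). Such a bound sets the brighter group against the dim probe's own signal or the array's lowest accepted signal, whichever was higher, and is open to dye bias. Here the probe was well above background in Cy5 on only 2 of the 3 arrays at 6 h. The reference RNA in Cy3 moved the same way, from 6.28 at 1 h to 6.42 at 6 h.

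FGF12, a homologous factor of cortical neurons, gave ratios under TatNR2B9c at 1 h of 2.79, 2.90 and 2.53 (left) and 3.50, 2.61 and 2.51 (right), and 2.24, 3.28 and 2.75 (left) and 3.41, 3.34 and 2.45 (right) at 6 h, so the times overlapped. Placebo cortex gave 3.53, 2.94 and 3.14 (left) and 2.85, 3.25 and 3.42 (right) at 6 h. Placebo cortex at 1 h was scattered, at -0.12, 1.81 and 1.99 on the left and 2.22, 2.98 and 0.57 on the right. The low values, left animal 1 and right animal 3, came from arrays with a weak reference channel, with 17.99% and 22.25% of probes well above background in Cy3. The remaining array below 25% in Cy3, left animal 3, read 1.99.

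FGF14, the homologous factor whose loss in humans causes a spinocerebellar ataxia, gave ratios of at most 0.91 in 6 groups and of at least 1.92 in 2. Its signal was well above background in Cy5 on 16 arrays and in Cy3 on 7. In Cy3 these were all 3 arrays of each placebo 6 h group and 1 of TatNR2B9c left cortex at 6 h. In Cy5 TatNR2B9c cortex at 1 h had only 1 such array, on the right. The lower ratios in the 6 groups thus rest on a mostly dim reference signal, and those near 0 do not show equal levels. Placebo cortex gave -0.06, 0.27 and 0.02 (left) and 0.40, 0.14 and 0.09 (right) at 1 h, but 2.60, 1.92 and 2.32 (left) and 2.05, 2.08 and 2.46 (right) at 6 h. Under TatNR2B9c the values were 0.04, 0.12 and -0.10 (left) and 0.32, 0.20 and 0.08 (right) at 1 h, and 0.44, 0.33 and 0.20 (left) and 0.91, 0.72 and 0.11 (right) at 6 h. No array outside the placebo 6 h groups exceeded 0.91, and none within them fell below 1.92. Group means ran from placebo left 6 h (2.28 ± 0.34, SD, n = 3) and placebo right 6 h (2.20 ± 0.23) to TatNR2B9c right 6 h (0.58 ± 0.42), TatNR2B9c left 6 h (0.32 ± 0.12), placebo right 1 h (0.21 ± 0.16), TatNR2B9c right 1 h (0.20 ± 0.12), placebo left 1 h (0.07 ± 0.17) and TatNR2B9c left 1 h (0.02 ± 0.11). Neighbours overlapped at every step but that from placebo 6 h to TatNR2B9c 6 h.

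**Figure D1:**
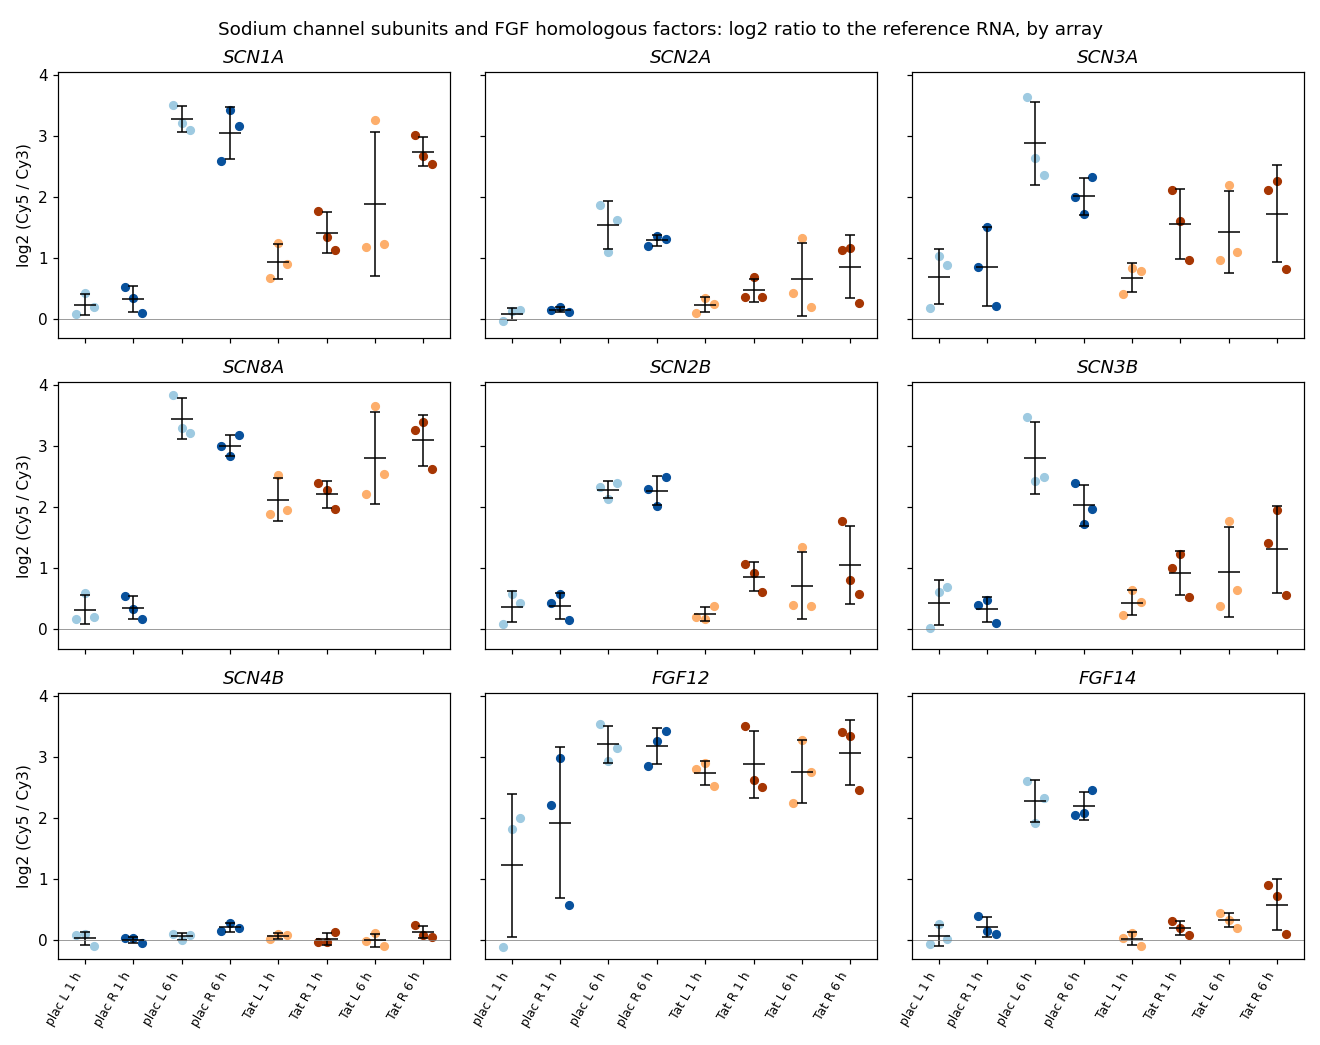
Log2 ratio of cortex (Cy5) to reference RNA (Cy3) on each of 24 arrays for the 9 genes, by treatment (plac, placebo; Tat, TatNR2B9c), side (L, R) and time. Points are arrays, horizontal marks group means and bars 1 SD (n = 3); SCN8A at 1 h is low only under placebo (0.16 to 0.60), and FGF14 is above 0.91 only in placebo cortex at 6 h.

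Ischemic right cortex was first set against non-ischemic left cortex. None of the 9 genes passed (adjusted p under 0.05 over all probes of a comparison, limma) in placebo cortex at 1 h or 6 h, in TatNR2B9c cortex at 1 h or 6 h, or in the mean of the 4 differences. The share of all probes that passed was 0% in each of these comparisons. At an unadjusted p under 0.05, 0 of 9 members counted in placebo cortex at either time and 1 of 9 under TatNR2B9c at either time, against 1.31%, 3.96%, 4.58% and 3.34% of all probes in the same order. In the mean of the 4 differences 0 of 9 did so, against 3.84%. Nothing is read from FGF14 in these counts. The members were thus not told apart between sides at 3 animals per group.

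The values by animal leaned differently in the groups. At 1 h in placebo animals, right minus left had a median over the members of 0.07 (0.01 over all probes), with 7 of 9 above 0 (53.1% of all probes). At 6 h in placebo animals 1 of 9 was above 0 (39.4% of all probes), with a median of -0.22 against -0.05. SCN3A differed by -0.87 (SE 0.44, adjusted p = 0.9997) and SCN3B by -0.77 (SE 0.37, adjusted p = 0.9997), and by animal they read -1.65, -0.91 and -0.04, and -1.08, -0.71 and -0.53. All 3 placebo animals at 6 h had lower SCN3A, SCN3B and SCN8A on the ischemic side, SCN8A by -0.85, -0.46 and -0.03. Left and right did not overlap for 4 of 9 members there, against 12.8% of all probes. The right was lower for SCN3A, SCN3B and SCN8A (8.35% of all probes) and higher for SCN4B (4.48%). Neuron markers in the same animals had a median difference of 0.14, with 8 of 13 above 0. None of these animals had both sides on the same slide. The left arrays of animals 1 and 3 were scanned on another day than the right arrays. Left animal 2 shared its scan day with the 3 right arrays. Within that day the members had a median difference of 0.14, with 5 of 9 above 0. SCN3A lay there at -0.62, SCN3B at -0.40 and SCN8A at -0.29.

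Under TatNR2B9c the members leaned to the right. At 1 h 8 of 9 were above 0 (44.2% of all probes), with a median of 0.23 against -0.03 over all probes. SCN3A was higher on the right by 1.70, 0.76 and 0.18 in the 3 animals (mean 0.88, SE 0.44, adjusted p = 0.923) and SCN2B by 0.85, 0.75 and 0.22 (mean 0.61, SE 0.27, adjusted p = 0.923). FGF14 was at least 1.17-fold brighter in right than in left cortex in Cy5 (mean log2 level 6.56 against 6.33). It was well above background on no left array and on only 1 of the 3 right arrays, so both levels were dim. Left and right did not overlap at 1 h for 3 of 9 members, against 20.2% of all probes. These were SCN2A, SCN3A and SCN2B, each higher on the right, as were 7.98% of all probes without overlap. At 6 h 9 of 9 were above 0 (60.7% of all probes), with a median of 0.31 against 0.06, and SCN1A had the largest mean (0.86, SE 0.38, adjusted p = 0.933) from animals at 1.84, -0.58 and 1.31. On the slide shared by animals 1 and 2 the median was 0.43, with 9 of 9 above 0, and on that of animal 3 it was 0.06, with 5 of 9 above 0. Neuron markers were higher on the right at 6 h for 13 of 13 genes, with a median of 0.33, and at 1 h for 4 of 13, with a median of -0.11. Over all 12 animals the right side was higher in 5 (SCN8A) to 9 (FGF14) of them.

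**Figure D2:**
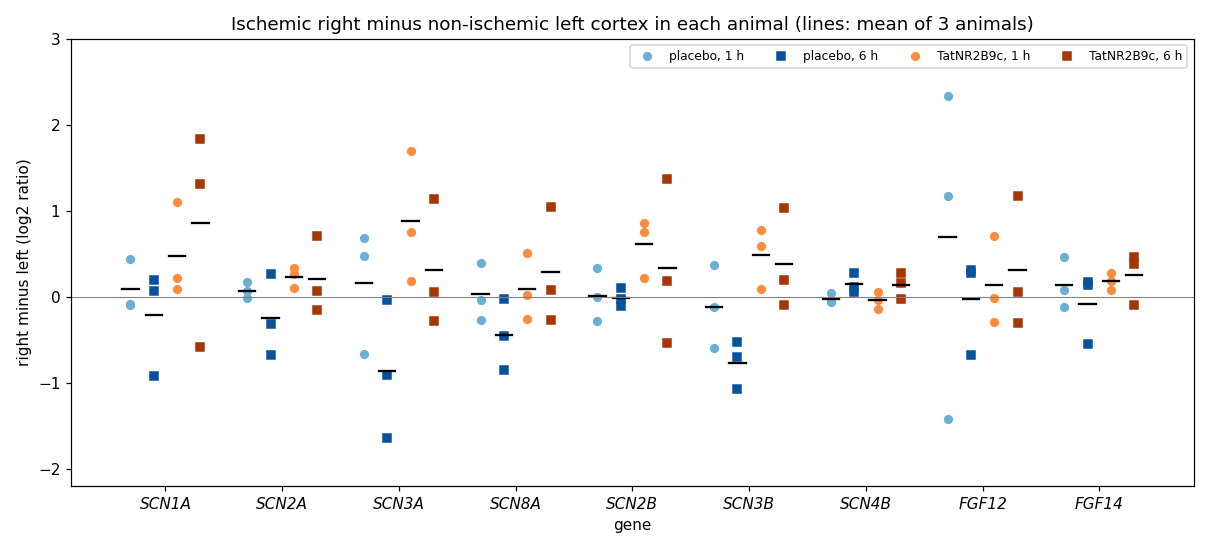
Difference in log2 ratio between ischemic right and non-ischemic left cortex of each animal, for the 9 genes in 4 groups of 3 animals, with the group mean as a line. Placebo animals at 6 h (dark blue) lie below 0 for SCN3A, SCN3B and SCN8A, while TatNR2B9c animals spread on both sides of 0.

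An interaction term compared the right-left difference between treatments. None of the 9 members passed at 1 h or at 6 h (0% of all probes at both times). At an unadjusted p under 0.05, 0 of 9 (1.72% of all probes) counted at 1 h and 1 of 9 (4.41%) at 6 h. At 6 h 8 of 9 differences were above 0 (65% of all probes), with a median of 0.45 against 0.13 over all probes. The largest were 1.17 for SCN3A (SE 0.62), 1.15 for SCN3B (SE 0.53) and 1.07 for SCN1A (SE 0.54), each at an adjusted p of 0.922. At 1 h the median was 0.16 against -0.04.

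Cortex taken at 6 h was then set against cortex at 1 h. Within the TatNR2B9c campaign no member passed on either side, nor did any other probe (0%). On the right 9 of 9 members were above 0 (54.9% of all probes), with a median of 0.38 (0.04 over all probes). On the left 8 of 9 were above 0 (49% of all probes), with a median of 0.46 (-0.01 over all probes). Of the 7 members other than SCN8A and FGF14, only SCN1A had an unadjusted p under 0.05 (limma) on each side. The share of all probes that did so was 19.3% on the right and 16.3% on the left. SCN1A differed by 1.33 (SE 0.38, adjusted p = 0.0997) on the right and 0.95 (adjusted p = 0.248) on the left, and SCN8A by 0.88 (SE 0.30) and 0.68. With array weights SCN1A passed on the right (1.44, adjusted p = 0.00658, with 12.6% of all probes passing), and SCN8A was at 1.01. Animal 3 alone had both times scanned on the same slide, and there the median was -0.03 on the right, with 4 of 9 above 0, and 0.23 on the left, with 7 of 9 above 0.

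In placebo cortex most members rose in the same comparison, which spans campaigns. On the left 6 of 7 members other than SCN8A and FGF14 rose (31% of all probes rose and 54.2% passed either way), all but SCN4B, and the median was 2.18 over the 9 members and 0.11 over all probes. On the right 5 of 7 rose (21.6% of all probes rose and 40.9% passed), all but FGF12 and SCN4B, with a median of 1.71 and 0.05. SCN1A rose by 3.04 on the left (SE 0.38, adjusted p = 9.4e-06) and 2.73 on the right (SE 0.38, adjusted p = 4.2e-05), while the smallest rises on the right were those of SCN2A (1.14, SE 0.26, adjusted p = 0.00189) and SCN3A (1.15, SE 0.44, adjusted p = 0.0442). SCN8A was higher at 6 h by 3.13 on the left and 2.65 on the right (SE 0.30), and FGF14 by 2.20 and 1.98 (SE 0.19).

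The direction of these placebo differences depended on the scaling for 2 members. Under median centring of each array FGF12 fell by 2.07 on the left (adjusted p = 0.00223) and by 2.03 on the right (adjusted p = 0.00333), and SCN3A lay at -0.45 and -0.75, not passing. In the Cy5 channel alone SCN3A lay at -0.59 (left) and -0.99 (right) and FGF12 at -0.75 (left) and -1.16 (right, adjusted p = 0.0131), while SCN1A rose by 1.39 (adjusted p = 0.0124) and 1.66 (adjusted p = 0.00273). SCN8A was at 1.65 and 1.42 in that channel, and FGF14 at 0.78 and 1.25. The reference channel alone gave lower levels at 6 h for the 8 members other than SCN4B on both sides, from -0.53 (SCN2A, right) to -2.77 (SCN3A, left). No member but FGF12 and, on 1 left array, SCN3A was well above background in Cy3 on any placebo 1 h array. Neuron markers (13 of 13 on both sides) rose alongside, with medians of 2.35 and 2.12. Of oligodendrocyte markers 6 of 7 rose on the left and 3 on the right, and of astrocyte markers 6 and 5 of 10. Of meningeal and choroid plexus markers 4 of 9 fell on each side, and of neutrophil and red cell markers 3 of 7. The part of these markers in the result was not tested.

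TatNR2B9c was compared with placebo at each time and side. At 1 h 0 of 7 members other than SCN8A and FGF14 passed in right cortex (1.58% of all probes) or in left cortex (0.865%). SCN8A was higher under TatNR2B9c by 1.86 (SE 0.30, a 3.63-fold ratio) on the right and by 1.80 (SE 0.30) on the left, where it was 1.60 without TatNR2B9c animal 2 and 1.52 without the placebo arrays of weak reference. FGF12 differed by 0.95 on the right (SE 0.54, adjusted p = 0.457) and 1.51 on the left (adjusted p = 0.250), and SCN1A by 1.09 (SE 0.38, adjusted p = 0.188) and 0.71 (adjusted p = 0.584). Under median centring FGF12 lay at -2.18 on the right and -2.77 on the left, and SCN3A at -1.01 on the right. Neuron markers were above 0 for 13 of 13 genes on both sides, with medians of 0.85 and 1.13, 1 and 2 of them passing, and their part in these differences was not tested.

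The channels of the SCN8A probe both differed between treatments at 1 h. In Cy5 its level was 10.96 ± 0.28 (SD, n = 3) under TatNR2B9c and 7.77 ± 0.22 under placebo in right cortex, and 10.90 ± 0.24 and 8.01 ± 0.38 in left cortex. In Cy3 the reference RNA read 8.75 ± 0.40 and 7.42 ± 0.16 on the right, and was well above background on no placebo 1 h array and on all 6 TatNR2B9c arrays. In the extraction software's processed signals and in the series matrix the ratio difference was 0.30 on the right and 1.49 on the left. At 6 h SCN8A differed by 0.09 on the right and -0.64 on the left (SE 0.30), with overlapping groups.

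At 6 h 1 of 7 members other than SCN8A and FGF14 passed in right cortex (4.3% of all probes) and 5 of 7 in left cortex (24.6%), all lower under TatNR2B9c, the direction in which 1.65% and 13.8% of all probes passed. FGF14 was lower by 1.95 on the left (log2 difference -1.95, SE 0.19) and by 1.62 on the right (-1.62, SE 0.19). SCN2B fell by 1.57 on the left (SE 0.27, adjusted p = 9.8e-04) and by 1.22 on the right (SE 0.27, adjusted p = 0.0172). On the left SCN3B fell by 1.87 (SE 0.37, adjusted p = 0.00223), SCN3A by 1.45 (SE 0.44, adjusted p = 0.0232), SCN1A by 1.38 (SE 0.38, adjusted p = 0.0145) and SCN2A by 0.88 (SE 0.26, adjusted p = 0.0187). On the right these 4 lay between -0.28 (SCN3A) and -0.72 (SCN3B) and did not pass. SCN2A was kept by the filter through placebo groups alone (right cortex at 1 h and both sides at 6 h). FGF12 was at -0.44 on the left and -0.11 on the right, and SCN4B at -0.06 and -0.08. On the left 2 of these 7 passed without placebo animal 1 (14.6% of all probes), TatNR2B9c animal 1 (13.1%) or TatNR2B9c animal 3 (15.4%). On the right 0 of 7 did without placebo animal 1 (1.97%) or 3 (2.01%) or TatNR2B9c animal 2 (2.39%) or 3 (1.05%).

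The counts at 6 h fell under other scalings. In the processed signals, in the series matrix and with the arrays scaled to equal spread 0 of these 7 passed on either side, where at most 0.284% of all probes did. FGF14 was at -2.44, -2.56 and -0.91 on the left in the same order. In Cy5 alone SCN1A stood at 0.13 on the left, with the sign turned, while FGF14 was at -1.83 on the left and -1.78 on the right. In that channel FGF14 was 6.37 ± 0.13 (TatNR2B9c) and 8.20 ± 0.26 (placebo) on the left, and 6.63 ± 0.41 and 8.41 ± 0.15 on the right (SD, n = 3). At 1 h FGF14 was at least 2.12-fold brighter in Cy5 in placebo left cortex (7.42) than in TatNR2B9c left cortex (6.33, not well above background on any array). The reference RNA in Cy3 differed likewise, at 7.34 and 6.31, well above background on no array of either group. The ratios thus differed by only -0.05. Of the neutrophil and red cell markers (7 of 10 measured), 3 were higher and 0 lower under TatNR2B9c on the left at 6 h (10.8% of all probes higher). On the right 2 were higher and 0 lower (2.65% higher). Summed Cy5 signals on TatNR2B9c left arrays at 6 h were 55947 to 91585 for neuron markers and 82190 to 171237 for the neutrophil and red cell markers. On placebo left arrays they were 68883 to 74092 and 5489 to 18574. The second sum rests mainly on HBB, a hemoglobin chain, at a mean log2 Cy5 level of 14.88 over the 24 arrays. No other measured gene of that list averaged above 8.17. On the left at 6 h neuron markers were below 0 for all 13 genes, 3 of them passing (median -0.68), and oligodendrocyte markers for all 7, 2 of them passing (median -1.19). On the right the medians were -0.56 and -0.02, with none passing. The part of these markers in the result was not tested.

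**Figure D3:**
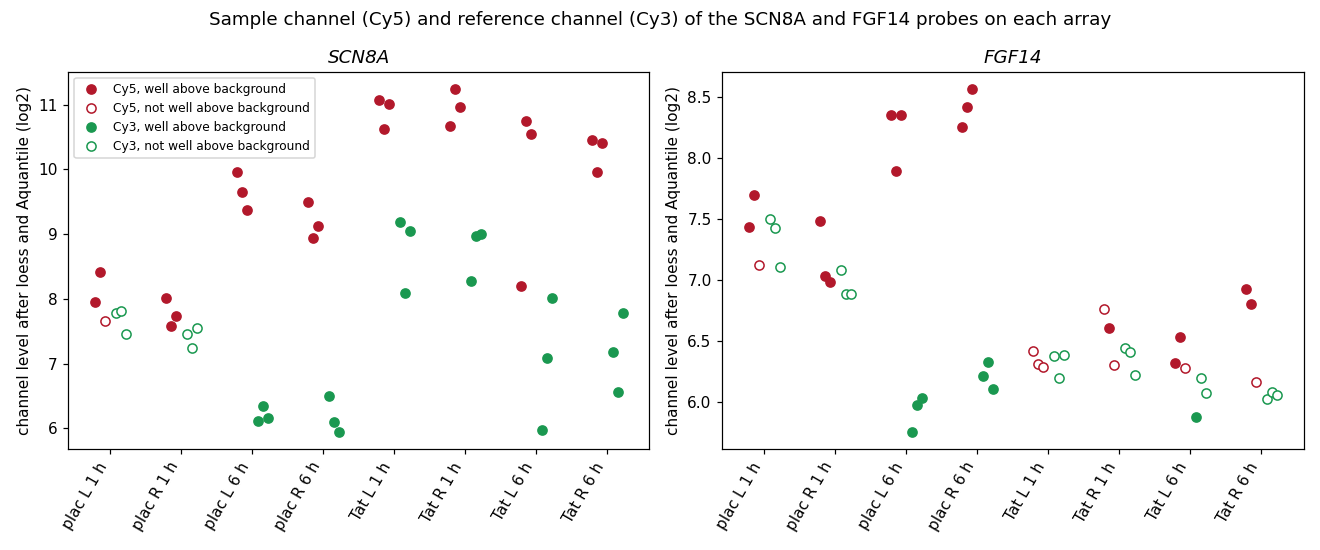
Level of the sample channel (Cy5, red) and the reference channel (Cy3, green) for SCN8A and FGF14 on each array, in log2 after loess and Aquantile, with open symbols where the spot was not well above background. In Cy5 SCN8A averages 10.90 and 10.96 in TatNR2B9c cortex at 1 h against 8.01 and 7.77 under placebo, and FGF14 lies below 7 on all 12 TatNR2B9c arrays.

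The change from 1 h to 6 h was also compared between treatments, a test added after the data were seen. It passed for 1 of 7 members other than SCN8A and FGF14 in right cortex (3.41% of all probes) and for 3 of 7 in left cortex (14.1% of all probes), each with a smaller change under TatNR2B9c, the direction in which 0.865% and 8.88% of all probes passed. SCN2B passed on both sides (-1.70, SE 0.39, adjusted p = 0.0245 on the right, and -1.45, SE 0.39, adjusted p = 0.0246 on the left), and SCN1A (-2.09, SE 0.54, adjusted p = 0.0231) and SCN3B (-1.87, SE 0.53, adjusted p = 0.0297) on the left. SCN8A stood at -1.77 and -2.44 and FGF14 at -1.61 and -1.90 (right, left). None of these 7 passed with the arrays scaled to equal spread, in the processed signals or in the series matrix. On both sides 0 of 7 passed without the 3 placebo arrays of weak reference (0.0348% of all probes on the left and 0.964% on the right). Leaving out single arrays gave 0 to 6 of 7 on the left, with 6 without TatNR2B9c animal 2 at 6 h (30.2% of all probes), and 0 or 1 on the right. On the left 0 passed without animal 1 of either placebo time, TatNR2B9c animal 2 at 1 h, or TatNR2B9c animal 1 or 3 at 6 h, and 1 without TatNR2B9c animal 3 at 1 h. On the right 0 passed without placebo animal 3 at either time, TatNR2B9c animal 1 or 2 at 1 h, or TatNR2B9c animal 3 at 6 h. The contrast spans all 3 campaigns.

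The members moved together from array to array within groups. After subtraction of group means, the Pearson correlation of log2 ratios over 24 arrays was above 0 for all 36 pairs of members, with a median of 0.581 and a range of 0.12 to 0.87, as a description of values that share arrays, loess curves and reference. In TatNR2B9c left cortex at 6 h, animal 2 had the highest ratio of its group for 8 of 9 members, with FGF14 as the exception. On that array the neuron markers averaged 3.40, against 2.29 and 2.39 on the others of the group. In TatNR2B9c right cortex at 6 h, animal 3 had the lowest ratio for 9 of 9 members, and its neuron markers averaged 2.41 against 3.17 and 3.47. Right animal 3 of placebo at 1 h was lowest for 9 of 9 and left animal 1 for 8 of 9, with neuron markers at 0.37 and 0.23 beside 1.40 and 1.76, and 1.44 and 1.09. Without the array of TatNR2B9c left animal 2 at 6 h, 5 of 7 members other than SCN8A and FGF14 passed in the treatment contrast there. With it left out, 35.3% of all probes passed.

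Other genes of the pathway were taken from lists drawn up with earlier results known. Of 10 other sodium channel subunits and homologous factors, 5 were measured above the filter under the symbols listed. A probe of VGCNL1, an older symbol of NALCN on this list, was also kept but is not in the counts. In placebo cortex 4 of the 5 rose and 1 fell from 1 h to 6 h on both sides. On the left FGF13, another homologous factor, rose by 2.40, while SCN4A, the skeletal muscle subunit, fell by 1.59. Between treatments at 6 h, 1 of the 5 was higher and 1 lower under TatNR2B9c on the left (10.8% and 13.8% of all probes). On the right 0 were higher and 1 lower (2.65% and 1.65%). On each side 1 of 5 differences was above 0, with medians of -0.41 (left) and -0.32 (right). The gene higher on the left was SCN4A, by 1.13 (adjusted p = 0.00423).

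Of 14 measured partners at the initial segment and node, 13 rose on the left and 12 on the right between 1 h and 6 h in placebo cortex, with medians of 1.69 and 1.41 (31% and 21.6% of all probes rose). KCNQ3, a potassium channel of the initial segment, rose by 2.59 on the left, and KCNA1, a potassium channel beside the node, by 3.103. Under TatNR2B9c against placebo 3 of 14 fell in left cortex at 6 h (13.8% of all probes), among them CNTN1, an adhesion molecule of axons, by 1.40 (adjusted p = 9.6e-04), and KCNQ3 by 1.35 (adjusted p = 0.0131). None of the 14 passed in the other 3 treatment contrasts. Among 12 measured regulators of the channels, 8 rose and 1 fell in placebo cortex over time on each side, with the same shares of all probes as above. NEDD4L, a ubiquitin ligase that removes channels from the membrane, was higher under TatNR2B9c at 1 h by 1.32 on the right (adjusted p = 0.0355) and 1.99 on the left (adjusted p = 0.00482), and GSK3B, a kinase that acts on SCN8A and FGF14 complexes, by 1.00 (adjusted p = 0.0138) and 1.103 (adjusted p = 0.00801). In the right-left contrasts none of the genes of these 3 lists passed.

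**Figure D4:**
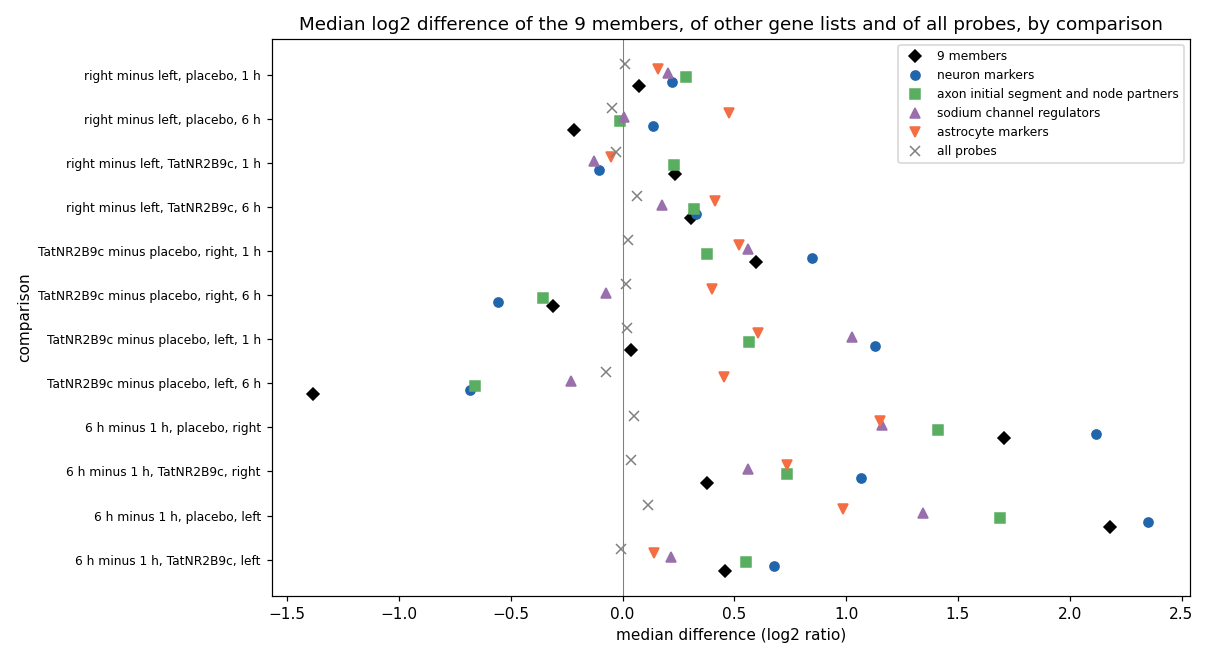
Median log2 difference over the 9 members (diamonds), 13 neuron markers, 14 partners, 12 regulators, 10 astrocyte markers and all probes (crosses) in the 12 comparisons of 2 groups. The members lie at -1.38 for TatNR2B9c against placebo in left cortex at 6 h, where neuron markers lie at -0.68 and all probes at -0.07, and at 2.18 for 6 h against 1 h in placebo left cortex, where neuron markers lie at 2.35.

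The genes most like SCN8A in their variation within groups over the 24 arrays were NETO1, an auxiliary subunit of glutamate receptors (Pearson r = 0.948, and 0.888 with group means kept), FBXL2 (0.935 and 0.903) and VGCNL1, an older symbol of the sodium leak channel NALCN (0.934 and 0.936). For FGF14 they were TRAPPC6B, a part of a vesicle tethering complex (0.874 and 0.465), NDN, the gene of necdin (0.867 and 0.948), and CRHBP, the corticotropin-releasing hormone binding protein (0.845 and 0.931). These coefficients describe arrays that share campaigns and carry no test.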

How the data were processed

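Total RNA from 24 samples of cortex was hybridised to 24 two-colour Agilent arrays, Cy5 for the sample and Cy3 for the reference, per the labels. The authors deposited scanner output, whose intensity columns (mean spot signals, local background medians and processed signals) were extracted, per the file headers, with Agilent Feature Extraction. Placebo arrays had version 9.5.3.1 at 1 h but 10.5.1.1 at 6 h, and all TatNR2B9c arrays had 10.7.3.1, the single version in the submitters' processing notes. Flags of 0 or 1 for spots well above background, saturated or non-uniform were set, per the file headers, by that program. Deposited log10 ratios in the scanner files are of processed Cy5 over Cy3, and the series matrix differed from them by at most 0.005, so its scale, direction and lack of further centring were settled from the values.

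From the intensities, background was corrected with normexp (offset 50) and ratios normalised by loess within each array in limma 3.58.1 (R 4.3.3). Control and non-uniform spots were left out and spots of 1 probe averaged. A probe was kept if some group had it well above background (Cy5) on all its arrays (17226 of 20217). SCN2A and FGF14 passed through 3 groups, all of them placebo (right cortex at 1 h and both sides at 6 h). SCN4B passed through the placebo 6 h groups, and without the filter all 9 genes had the same values. One model with 8 group means was fitted to all kept probes, with Benjamini-Hochberg adjustment over all of them in each of 15 comparisons and 2 added after the data were seen. With 3 samples per group, an exact permutation test could not go below p = 0.1, so limma's moderated test was used. Recovery was tested on simulated data. The number of arrays limits the precision.

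The members and the gene lists were chosen with earlier results of these data known. Every probe of the 9 genes is reported. From other lists up to 4 passing genes per comparison were named, lowest adjusted p first, apart from some genes not reported here, and for SCN8A and FGF14 the 3 genes with the highest within-group correlation. Left and right arrays of the same number were read as 1 animal from the labels' numbering. The deviations of the 2 sides from their group means correlated between -0.71 and 0.68 over the 12 animals.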

Additional observations from a re-analysis of the deposited data

Results flagged for a closer look

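The difference between 6 h and 1 h was tested between treatments, TatNR2B9c minus placebo, and 8 values are listed for a closer look because the fitted difference was past the threshold. For 2 of the genes nothing is read from that. In right cortex SCN2B stood at -1.70 (SE 0.39, limma adjusted p = 0.0245). In left cortex the values were -2.09 for SCN1A (SE 0.54, adjusted p = 0.0231), -1.45 for SCN2B (SE 0.39, adjusted p = 0.0246) and -1.87 for SCN3B (SE 0.53, adjusted p = 0.0297). SCN8A (-1.77 right, -2.44 left) and FGF14 (-1.61 right, -1.90 left) are given as descriptions, since SCN8A was known to differ between treatments when the genes were chosen and FGF14 may have been. For SCN8A the placebo 1 h values were low, and for FGF14 the placebo 6 h values were high. The scanning campaigns and the treatments and placebo times cannot be told apart here.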

How the results depend on the processing

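The treatment and placebo time contrasts rest on 3 animals per group and 3 campaigns, with weak reference signals at 1 h under placebo. The counts below are over all 9 genes, SCN8A and FGF14 included, for which nothing is read from them. None of the 9 genes passed in the right-left contrasts or in treatment by side under any alternative that kept all arrays. With the replicate block for the animal 0 of 9 passed in each side contrast and in both treatment by side contrasts, and with the number as a replicate block 1 and 2 passed between treatments in right cortex at 1 h and 6 h, 1 and 6 in left cortex, 7 and 8 over time under placebo (right, left), and 3 and 5 for treatment by time, so the block changed no call count. The causes of the changes below were not tested, except that requiring a signal on all 24 arrays keeps only SCN3A, SCN3B and FGF12.

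Between treatments in right cortex at 1 h, 1 member passed (1.58% of all probes), and 6 did under median centring (67%), 0 with equal spread between arrays, 0 with processed signals, 0 in the series matrix, 2 in Cy5 alone (14.2%), 4 in Cy3 alone (32.2%), 0 on the all-array filter and 2 with array weights (12%). At 6 h on the right the count of 2 became 1 with equal spread, 0 with processed signals, 0 in the series matrix, 0 in Cy3 alone, 0 on the all-array filter and 1 with the groups of the comparison alone. In left cortex at 1 h the count of 1 became 7 under median centring (77.1% of all probes), 2 with equal spread (7.65%), 2 with processed signals (12%), 2 in the series matrix (12%), 4 in Cy5 alone (24%), 6 in Cy3 alone (36.9%), and 0 on the all-array filter, with the groups alone and without the weak-reference arrays. At 6 h on the left the count of 6 became 1 with equal spread (0.0929% of all probes), 0 with processed signals, 0 in the series matrix, 1 in Cy3 alone (15%), 2 on the all-array filter (8.67%) and 0 with the groups alone.

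Over time under placebo the count of 7 on the right became 3 with equal spread (6.46% of all probes), 2 with processed signals (15.1%), 2 in the series matrix (15.1%), 4 in Cy5 alone (24.8%) and 2 on the all-array filter (35.6%), and the count of 8 on the left became 5, 3 and 3 with equal spread (13.1%), Cy5 alone (17%) and the all-array filter (47.7%). Under TatNR2B9c on the right array weights gave 2 (12.6%). Treatment by time, chosen after seeing the data, gave 3 on the right and 0 under median centring, equal spread, processed signals, the series matrix, Cy5 alone, Cy3 alone and the all-array filter, and 1 without the weak-reference arrays. On the left it gave 5, and 8 without background subtraction (23.7% of all probes), 0 with equal spread, processed signals, the series matrix or without the weak-reference arrays, and 1 in Cy5 alone, on the all-array filter and with the groups alone.

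Leaving out single arrays gave counts between 1 and 2 between treatments on the right at 6 h, 0 and 1 on the left at 1 h (0 without TatNR2B9c animal 2), 3 and 7 on the left at 6 h, 6 and 8 over time under placebo on the right, 0 and 1 for treatment by side at 6 h (SCN1A at 1.75, adjusted p = 0.0478, without TatNR2B9c left animal 2), 1 and 3 for treatment by time on the right, and 2 and 8 on the left. In the other contrasts the count did not move.

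Signs of single members changed in 361 of 2265 values under the alternatives with all arrays or without the weak-reference arrays. In 313 of these neither value passed, and the other 48, with a call on at least 1 side, follow. Under median centring they were those between treatments at 1 h of FGF12 (-2.18 right, -2.77 left) and SCN3A (-1.01 right), and over time under placebo those of FGF12 (-2.03 right, -2.07 left) and SCN3A (-0.75 right, -0.45 left). In Cy5 alone SCN1A turned to 0.13 between treatments on the left at 6 h, and over time under placebo FGF12 (-1.16 right, -0.75 left) and SCN3A (-0.99 right, -0.59 left) turned. Among values with a call, equal spread turned SCN3A to -0.12 over time on the right, and the processed signals and the series matrix turned it to 2.28 between treatments on the left at 1 h.

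In Cy3 alone, which holds only reference RNA, the values between treatments at 1 h were -1.55 (right) and -2.11 (left) for FGF12 and -1.23 (right) for SCN3A, and at 6 h 0.027 for SCN2B on the right, and 0.13 for FGF14, 1.51 for SCN1A, 0.27 for SCN2A, 0.25 for SCN2B, 0.16 for SCN3A and 0.47 for SCN3B on the left. Over time under placebo they were -2.41 and -2.73 for FGF12, -0.74 and -1.42 for FGF14, -1.07 and -1.64 for SCN1A, -0.53 and -0.97 for SCN2A, -1.27 and -1.66 for SCN2B, -2.14 and -2.77 for SCN3A, -1.33 and -2.01 for SCN3B, and -1.24 and -1.48 for SCN8A (right, left). For treatment by time they were 0.43 (FGF14) and 0.47 (SCN2B) on the right, and 1.16 (FGF14), 1.29 (SCN1A), 1.02 (SCN2B), 1.501 (SCN3A) and 1.08 (SCN3B) on the left. Of the 2265 values, 1757 kept sign and call, 115 kept the sign and lost a call, and 32 gained one.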
